A study of Mus musculus with 4 samples.

Results

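Creb3l4, Fam3c, Oit1, Cfi, Fabp1 and Rassf10 are 6 genes with far higher values in mucous neck cells than in zymogenic cells of the mouse stomach. They were listed by name because their neck values stood far above their zymogenic values in wild-type mice or in both genotypes. They are 6 of 19938 genes measured, and each was read by 1 probe set, a group of array probes for one transcript. Values came from Affymetrix Mouse Gene 1.0 ST arrays of cells cut from sections of adult stomach by laser capture, from mice on a C57BL/6 background. The 4 groups were wild-type neck cells, wild-type zymogenic cells, MIST1 knockout neck cells and MIST1 knockout zymogenic cells. Each group was 1 array, made from RNA pooled over several dissections and several mice, so no difference has a replicate check and no test was possible. The design text gives 4 wild-type and 5 knockout mice with 2 caps each, without saying which animals entered which pool. Zymogenic cells were taken basal to the staining of GS-II, a lectin that binds neck cell mucus, and without the outline of parietal cells. Neither the ages of the mice nor the make of the knockout allele is stated in the labels used here.

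Mucous neck cells lie in the middle of the gastric gland, secrete mucus, and are held to turn into the enzyme-storing zymogenic (chief) cells of the gland base. MIST1, encoded by Bhlha15, is a bHLH transcription factor that builds the secretory machinery of zymogenic cells. The 6 genes serve unlike roles. CREB3L4 is a transcription factor held in the membrane of the endoplasmic reticulum (ER) until it is cut free, FAM3C and OIT1 are related secreted proteins, and factor I (Cfi) is a secreted protease that inactivates complement. FABP1 carries fatty acids in the cytosol, and RASSF10 belongs to a family of proteins with a Ras association domain.

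The labels were checked against markers. The summed intensity of 6 neck markers was 9616 and 11845 in the wild-type and MIST1-null neck arrays and 1839 and 689 in the zymogenic arrays. Aqp5, on that neck list, ran against the sum, at 65.7 and 62.5 in neck and 95.5 and 92.0 in zymogenic cells (0.54 and 0.56). The sum of 7 zymogenic markers ran opposite to the neck sum, carried by Pgc, Cblif and Chia1. It was 14229 to 14329 in neck and 23302 to 24779 in zymogenic arrays. Pga5, a pepsinogen gene on that list, ran against it, at 1350 and 1884 in neck and 31.0 and 20.4 in zymogenic cells (-5.45 and -6.53). Lipf and Cym were under the reference level of 43.7 in the 4 arrays. Bhlha15 read 59.7 in neck and 149.8 in zymogenic cells of wild-type mice, against 20.2 and 22 in the knockout arrays. Markers of other cells gave signal as well: 6 parietal markers summed to 4167 in wild-type zymogenic cells and to 7416 to 8013 elsewhere. In the MIST1-null neck array, however, 7 of 9 stromal and 7 of 7 immune markers were under the reference level. Summed stromal markers were 325 to 471 in neck and 1280 to 1382 in zymogenic arrays, endocrine markers 3736 to 5803 and 8799 to 12822, and immune markers 123 to 308 and 435 to 508. The sum of 5 surface mucous markers was 6670 to 6761 in neck and 8977 to 10762 in zymogenic arrays, with 0 of 5 under the level in any array.

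All 6 genes were high in both neck arrays and low in both zymogenic arrays. The reference level of 43.7 is the median of all probe sets with 1 gene. This level only ranks signals by size, since background was not measured. All 12 neck values of the 6 genes lay above it, and 11 of 12 zymogenic values lay under it, the exception being Cfi in MIST1-null mice. In cut tissue, fewer cells of a type and less RNA per cell cannot be told apart.

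**Figure D1:**
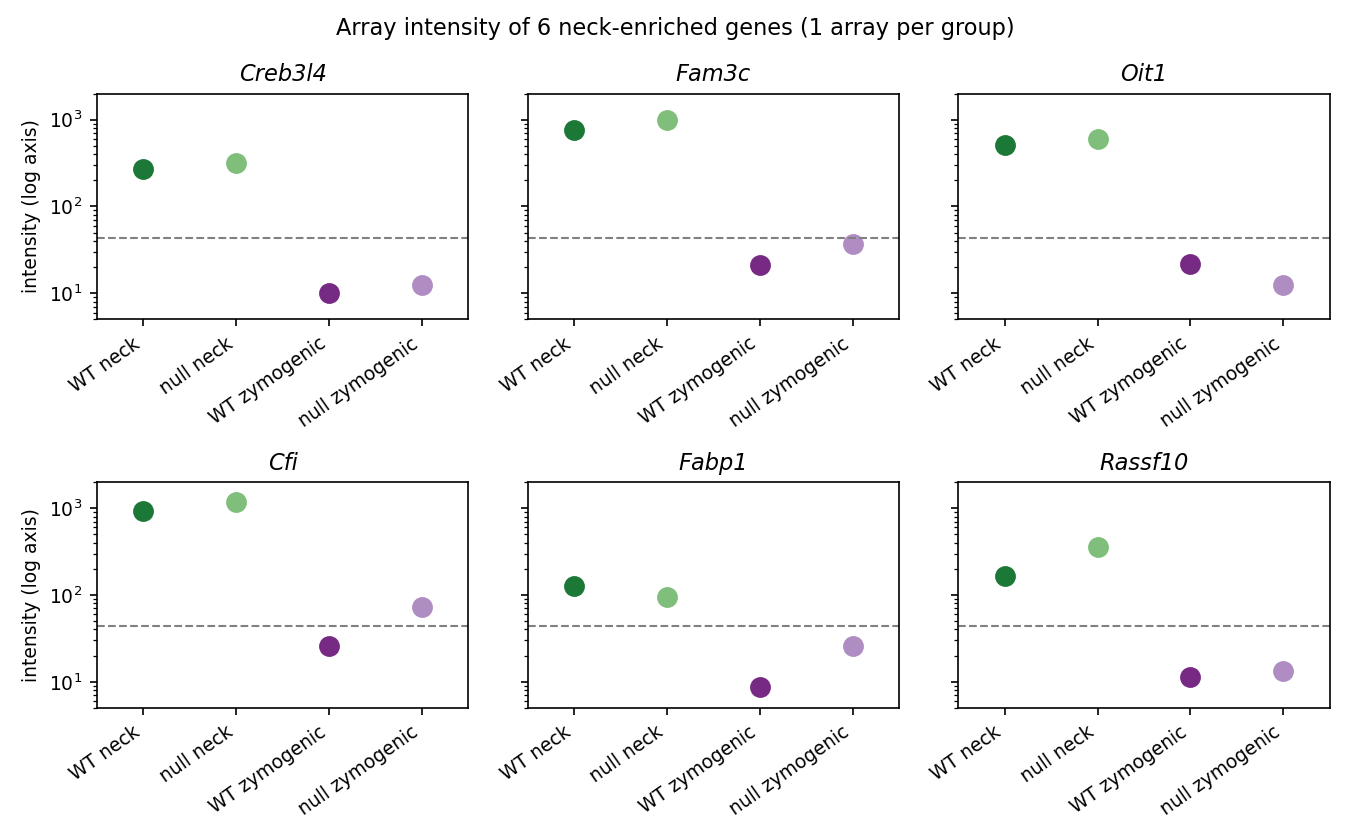
Intensity of each gene (log axis) in the 4 arrays, 1 point per array, with a dashed line at the reference level of 43.7. Both neck points lie above the line for each gene, and the zymogenic points lie under it except Cfi in MIST1-null mice, at 73.6.

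Creb3l4 (probe set 10499751, Entrez gene 78284, chromosome 3) read 267 in wild-type and 317 in MIST1-null neck cells. Its zymogenic values were 10.2 and 12.3. The neck arrays are both high and the zymogenic arrays both low, with a log2 difference, zymogenic minus neck, of -4.72 in wild-type and -4.69 in MIST1-null mice. The size is nearly the same in both genotypes, but it rests on zymogenic values far under the reference level. Set against that level instead, neck cells were 6.12-fold and 7.26-fold higher.

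Fam3c (10543319, Entrez 27999, chromosome 6), which encodes the cytokine-like protein also called ILEI, read 759 in wild-type and 997 in MIST1-null neck cells. It read 21.2 and 36.8 in zymogenic cells. The differences were -5.16 and -4.76, and neck cells stood 17.4-fold and 22.8-fold above the reference level. Oit1 (10417568, Entrez 18300, chromosome 14) is the mouse gene of FAM3D, a secreted protein of the gut. Its intensities were 511 and 604 in neck and 21.6 and 12.6 in zymogenic cells, in wild-type and MIST1-null mice in turn. Oit1 had both its highest and its lowest reading in MIST1-null mice, with differences of -4.56 and -5.58.

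Cfi (10496001, Entrez 12630, chromosome 3) read 916 in wild-type neck, 1164 in MIST1-null neck, 26.1 in wild-type zymogenic and 73.6 in MIST1-null zymogenic cells. It was the single gene of the 6 with a zymogenic value above the reference level. The differences were -5.14 in wild-type and -3.98 in MIST1-null mice.

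Fabp1 (10538965, Entrez 14080, chromosome 6) was the least sharply divided. It read 128 and 95.6 in neck and 8.69 and 25.5 in zymogenic cells of wild-type and MIST1-null mice. The difference was -3.88 in wild-type and -1.91 in MIST1-null mice. Against the reference level, neck cells were 2.92-fold and 2.19-fold higher. Rassf10 (10556458, Entrez 78748, chromosome 7) read 167 in wild-type neck and 353 in MIST1-null neck cells, and 11.4 and 13.2 in the zymogenic arrays. Its differences were -3.88 and -4.75. Against the reference level, neck cells were 3.82-fold and 8.09-fold higher.

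These cell type differences are what the genes were picked for, so they describe the choice and support nothing further. By that choice 6 of 6 genes read at least 2-fold lower in the zymogenic array of both genotypes. Among all genes whose higher value reached the reference level, 6.78% of 11778 were so in wild-type mice and 4.8% of 11322 in MIST1-null mice. The median over the 6 was -4.64 and -4.72, beside 0.02 and 0.05 over all such genes. Counted from the most negative difference in wild-type mice, Fam3c was at place 3, Cfi at 4, Creb3l4 at 7, Oit1 at 8, Fabp1 at 9 and Rassf10 at 10. In MIST1-null mice Oit1 was at place 3, Fam3c at 6, Rassf10 at 7, Creb3l4 at 8, Cfi at 12 and Fabp1 at 109. The places rest on zymogenic values under the reference level for all but Cfi in MIST1-null mice. With such values raised to the level, Fabp1 differed by -1.55 in wild-type and -1.13 in MIST1-null mice. The parietal sum was lowest in the wild-type zymogenic array, and its part in these differences was not tested.

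**Figure D2:**
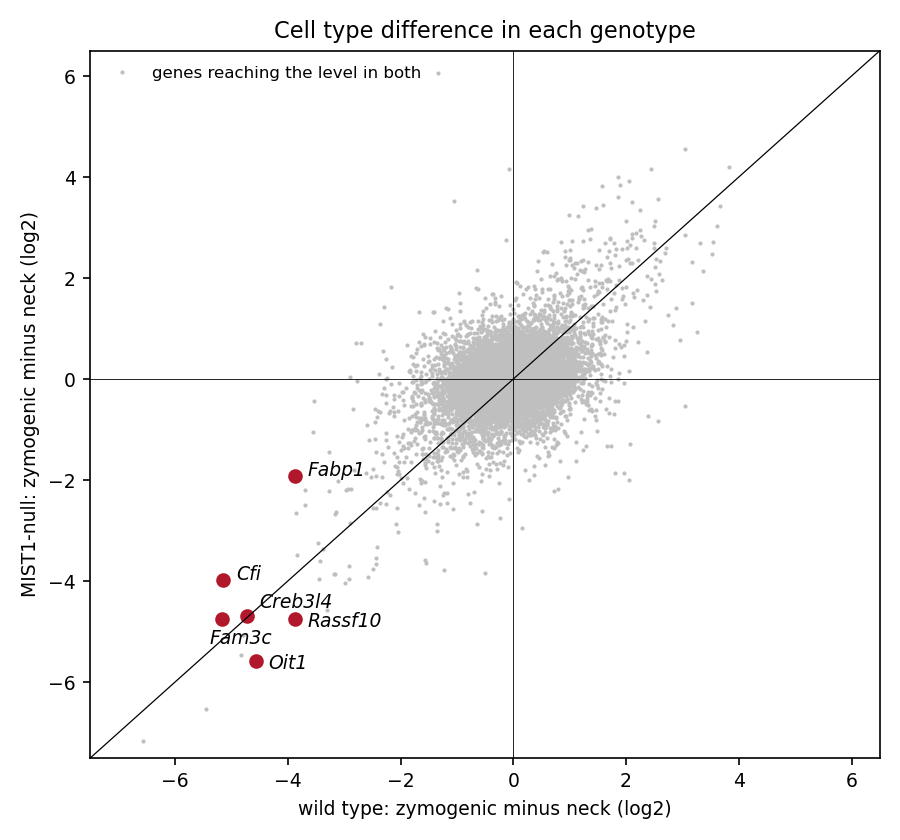
Zymogenic minus neck difference (log2) in wild-type mice (x axis) against MIST1-null mice (y axis), each point a gene that reached the reference level in both comparisons, with the 6 genes in red and a line of equality. Creb3l4 lies on the line, Oit1 and Rassf10 under it, and Fam3c, Cfi and, farthest from it, Fabp1 above.

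The stretch around the transcription start was available for 4 of the 6 genes, as RefSeq windows on build GRCm38.p6 from 250 bases before to 50 bases after the start. None was at hand for Cfi and Rassf10. The windows are shown because the 4 genes share a pattern over the arrays and their starts are unlike in composition. Capitals mark matches to 7 short motifs searched on both strands: the E-boxes CATATG and CAGCTG, of the kind bHLH factors such as MIST1 bind, and TGACG, the core of sites for CREB-like factors. The other motifs were CCACG, part of the ER stress element, TGTTTAC, bound by forkhead factors, TATAAA, the TATA box, and AGGTCA, a nuclear receptor site. The Creb3l4 window is 1 of 3 listed starts of that gene, at chr3:90242501-90242800, minus strand. The Fam3c window is chr6:22356032-22356331, minus strand, the Oit1 window chr14:8378714-8379013, minus strand, and the Fabp1 window chr6:71199629-71199928, plus strand.
Creb3l4: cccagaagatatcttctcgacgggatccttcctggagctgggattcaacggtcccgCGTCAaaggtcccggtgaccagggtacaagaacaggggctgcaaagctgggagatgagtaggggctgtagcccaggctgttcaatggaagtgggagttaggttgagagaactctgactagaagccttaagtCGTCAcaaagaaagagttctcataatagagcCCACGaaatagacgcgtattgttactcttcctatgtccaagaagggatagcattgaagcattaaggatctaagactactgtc
Fam3c: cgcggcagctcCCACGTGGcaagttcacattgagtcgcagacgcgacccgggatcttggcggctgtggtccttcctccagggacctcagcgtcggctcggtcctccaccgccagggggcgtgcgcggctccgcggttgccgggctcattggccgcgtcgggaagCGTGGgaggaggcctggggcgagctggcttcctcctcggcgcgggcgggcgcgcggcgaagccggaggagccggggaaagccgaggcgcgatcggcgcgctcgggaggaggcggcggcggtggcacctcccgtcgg
Oit1: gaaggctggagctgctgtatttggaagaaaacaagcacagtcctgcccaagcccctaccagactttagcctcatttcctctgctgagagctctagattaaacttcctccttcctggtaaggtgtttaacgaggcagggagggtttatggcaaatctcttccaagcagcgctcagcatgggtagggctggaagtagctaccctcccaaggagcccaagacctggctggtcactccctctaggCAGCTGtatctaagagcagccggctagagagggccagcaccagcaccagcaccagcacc
Fabp1: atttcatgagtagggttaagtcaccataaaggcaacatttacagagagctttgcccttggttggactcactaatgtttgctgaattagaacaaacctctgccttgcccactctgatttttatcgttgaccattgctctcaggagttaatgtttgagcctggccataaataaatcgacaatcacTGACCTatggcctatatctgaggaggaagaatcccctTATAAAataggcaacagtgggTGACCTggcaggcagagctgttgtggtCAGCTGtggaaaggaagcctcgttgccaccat

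The Fam3c window was rich in CpG, with 45 CpG pairs and 75% G and C, where the median of 32851 windows was 7 pairs and 52.7%. The Fabp1 window held 3 CpG pairs and 45.0% G and C, with a TATAAA beginning 30 bases before the start. That motif was in 13.6% of all windows. Fabp1 also had AGGTCA, read on the opposite strand, beginning 67 and 9 bases before the start, where 16.3% of windows hold at least 1. The printed Creb3l4 window, the one of 3 with the most matches, held 2 TGACG matches, on the opposite strand, and 1 CCACG, found in 20.8% and 32.8% of windows. Another start of the gene had 1 of each and the remaining one had no match to any of the 7. Fam3c had 3 CCACG matches, of which 2 overlap on opposite strands, and Oit1 and Fabp1 each had CAGCTG, a motif of 16.3% of windows. CATATG and TGTTTAC, in 3.91% and 3.65% of windows, had no match in the printed windows. These matches describe letters in a window, not binding.

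The genotypes were set against each other within each cell type. The list was not picked on this difference, but the values compared are those that entered the pick. The comparison is therefore not independent of the choice of genes. In neck cells 5 of 6 were higher in MIST1-null than in wild-type mice, as were 50.2% of 10966 genes reaching the reference level. The differences, MIST1-null minus wild type on the log2 scale, were 0.24 for Oit1, 0.25 for Creb3l4, 0.35 for Cfi, 0.39 for Fam3c and 1.08 for Rassf10, and -0.42 for Fabp1. Their median was 0.30, beside 0.00 for all genes. Rassf10 alone reached 2-fold, at 353 against 167, where 1.89% of genes were at least 2-fold higher. It was 0.95, short of 2-fold, with a pseudocount of 32 added to the intensities. Of the 6 neck markers 5 were higher too, with a median of 0.28, among them the mucin Muc6 (0.25), Agr2 (0.22), a folding enzyme for mucins, and Gkn3 (0.70). The sums of endocrine and stromal markers were both lower in the MIST1-null neck array. Their part in these differences was not tested.

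In zymogenic cells 5 of the 6 genes read under the reference level in both genotypes, so no size is given to their differences. Cfi reached it in MIST1-null mice and was higher there by 1.5, at 73.6 against 26.1, where 5.15% of 11826 genes were at least 2-fold higher. The wild-type value is under the level, and the difference was 0.75 with values under the level raised to it. The neck markers went the other way in this comparison, with a median of -0.56 and Tff2, a trefoil peptide, at -2.25. The parietal markers were higher in the MIST1-null array, with a median of 1.05 over 5 of 6 markers. Their part in the Cfi difference was not tested.

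**Figure D3:**
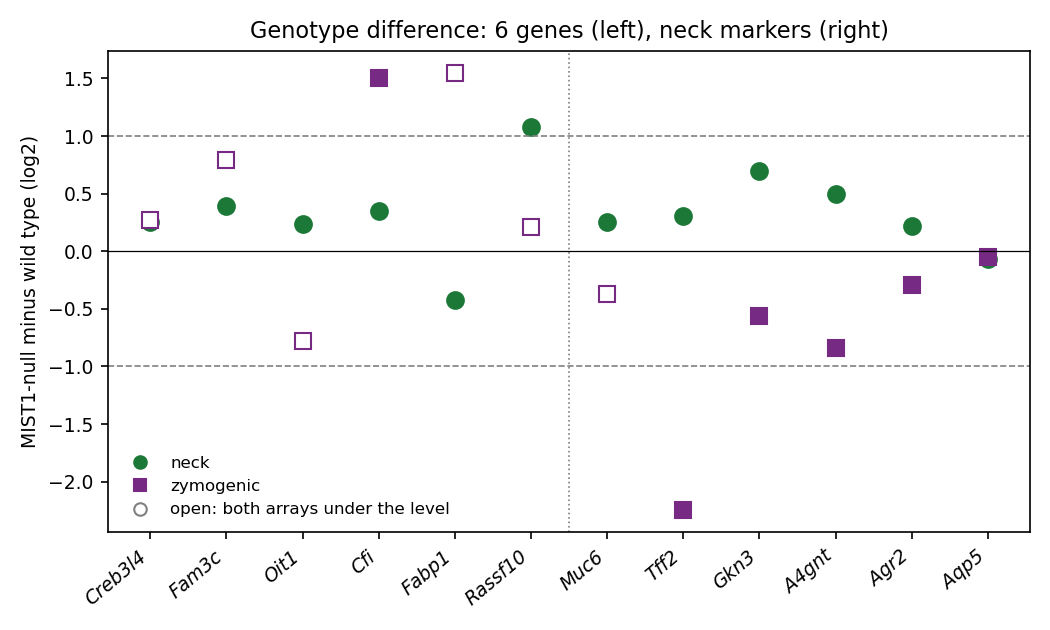
MIST1-null minus wild-type difference (log2) in neck (circles) and zymogenic cells (squares) for the 6 genes at left and 6 neck markers at right, 1 pair of arrays each, with open symbols where both arrays read under the reference level and dashed lines at 2-fold. Rassf10 in neck cells (1.08) and Cfi in zymogenic cells (1.5) are the filled points of the 6 genes beyond 2-fold.

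Relatives of each gene were read to see whether a whole family shared the pattern. CREB3 proteins are cut in the Golgi by site-1 and site-2 proteases, and the freed part enters the nucleus. Among 11 measured genes of that family, its proteases and the other ER stress sensors, 9 reached the reference level in wild-type mice and 1 of them was at least 2-fold lower in zymogenic cells, where 6.78% of all genes were. In MIST1-null mice 2 of 11 were lower and 1 higher, beside 4.8% and 4.9%, or 1 in all with the pseudocount. The gene lower in both genotypes was Ern2, the form of the ER stress sensor IRE1 found in mucous epithelia. Ern2 read 228 in wild-type and 277 in MIST1-null neck cells, and 21.9 and 26.9 in zymogenic cells. Its differences were -3.38 and -3.36, nearly equal in both genotypes, as for Creb3l4. They too rest on zymogenic values under the reference level. The widely expressed sensor gene Ern1 read 32.9 and 40.6 in wild-type neck and zymogenic cells and 42.0 and 70.5 in MIST1-null ones. Creb3, the founding gene of the family, differed by -0.62 in wild-type and -0.21 in MIST1-null mice, and the site-1 protease gene Mbtps1 by -0.42 and -0.04. Creb3l1 was at -0.59 and -1.05. Creb3l2 was at -0.32 in wild-type mice and at 1.48 in MIST1-null mice, where its neck value of 24.7 is under the level. Xbp1, the target of IRE1, went the other way by 0.47 and 0.63.

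Of 6 other genes measured of the FAM3 family and its reported receptors, 5 reached the reference level in wild-type mice. Of those 1 was at least 2-fold lower in zymogenic cells, where 6.78% of all genes were. In MIST1-null mice 0 of 4 were, beside 4.8%. The 1 in wild-type mice was Fam3b, whose product is secreted with insulin from pancreatic islets. Fam3b read 365 in wild-type and 315 in MIST1-null neck cells, against 66.2 and 175 in zymogenic cells. The difference was -2.46 in wild-type and -0.85 in MIST1-null mice, and its zymogenic values differed between genotypes by 1.41. The wild-type zymogenic array was also the lowest in parietal markers, whose part was not tested. Fam3a lay near the reference level in the 4 arrays, from 49.1 to 62.3. Lifr, a reported receptor of FAM3C, read 222 and 229 in neck and 166 and 158 in zymogenic cells, with differences of -0.42 and -0.54. Il6st, the gene of the subunit that pairs with LIFR, was at -0.06 and 0.47.

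Complement genes were divided between the cell types. Of 31 others measured, 17 reached the reference level in wild-type mice, with a median of 0.56, beside 0.02 over all genes reaching it. At least 2-fold higher in zymogenic cells were 5, where 6.27% of all genes were, and 1 was lower, beside 6.78%. Those 6 became 3 with the pseudocount, with values raised to the level or with the 75th percentile filter. In MIST1-null mice 5 of 15 were at least 2-fold higher, beside 4.9% of all genes, and 1 was lower, beside 4.8%. The 6 became 3 with raised values and 10 with no filter. Among zymogenic against neck differences of the markers that reached the level, the immune and stromal medians were 1.34 and 1.63 in wild-type and 2 and 2.40 in MIST1-null mice, and their part was not tested. The complement gene at least 2-fold lower in both genotypes was Cd55, which shields cells by breaking up the C3 convertase. Cd55 read 154 and 197 in neck cells and 50.1 and 70.8 in zymogenic cells of wild-type and MIST1-null mice, with differences of -1.62 and -1.48. Among the cofactors of factor I, Cd46 was close to the level in neck cells (42.9 and 49.4) and lower in zymogenic cells (25.3 and 26.8), and C4bp did not pass it in wild-type mice. Cr1l, a membrane regulator of the same kind, read 642 and 897 in wild-type neck and zymogenic cells and 737 and 581 in MIST1-null ones.

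Fabp1 has 12 measured relatives, of which 7 reached the reference level in wild-type mice. Fabp3, the heart form, was the single one at least 2-fold lower in zymogenic cells, at -1.40, where 6.78% of all genes were. Its other probe set gave -1.47, and in MIST1-null mice they gave -0.57 and -0.35. There 0 of 10 relatives were at least 2-fold lower and 3 were higher, Fabp6 (1.48), Fabp7 (1.34) and Rbp7 (1.04), where 4.9% of all genes were. The 3 became 1 with raised values or the 75th percentile filter and 0 with the pseudocount. The difference of Fabp5, the epidermal form, was -0.16 and -0.82 in wild-type and MIST1-null mice. Fabp2, the intestinal form, stayed under the level, from 9.78 to 32.7. Of 11 markers of intestinal absorptive cells, which also express Fabp1, 7 were under the level in the 4 arrays, among them Vil1, Cdx2 and Sis. Apoa1, on that marker list, read 2819 and 2807 in neck and 1267 and 2215 in zymogenic cells. Of 6 hepatocyte markers, Alb, the defining one, was at most 27.9, and Cyp2e1 and Tat were also under the level in the 4 arrays. Ttr, on the same list, read from 904 to 2600 Apoa2 from 69.2 to 106 and Ahsg from 18.5 to 70.9, and the summed list ran from 1078 to 2843.

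Genes of fatty acid uptake and oxidation, many of them targets of PPAR alpha like Fabp1, were read in the same way. Of 26 measured, 18 reached the reference level in wild-type mice. By size 7 were at least 2-fold lower and 1 higher, where 6.78% and 6.27% of all genes were, and the median was -0.76. The 8 became 5 with the pseudocount. The mitochondrial gatekeeper Cpt1a read 179 and 50.9 in wild-type and 314 and 153 in MIST1-null neck and zymogenic cells. The peroxisomal enzyme gene Ehhadh read 73.9 and 15.4, and 54.2 and 25.9. In MIST1-null mice those were the 2 of 17 at least 2-fold lower, beside 4.8% of all genes. The median there was -0.22 and 1 was higher, beside 4.9%. The 3 became 1 with the pseudocount. The differences in wild-type and MIST1-null mice were -1.82 and -1.04 for Cpt1a, and -2.26 and -1.07 for Ehhadh, whose zymogenic values are under the level. Slc27a2, a fatty acid transporter, went the other way by 2.02 and 2.73, from neck values of 35.4 and 24.0, both under the level. Parietal markers, from cells rich in mitochondria, had medians of -1.07 and -0.20 in the same comparisons, and their part was not tested.

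Of the RASSF family, Rassf9, next of kin to Rassf10 among the members with an N-terminal Ras association domain, showed the same direction. It read 67.6 and 56.6 in neck and 21.7 and 14.2 in zymogenic cells, with differences of -1.64 and -2. Both zymogenic values are under the reference level. Of 3 relatives reaching the level in wild-type mice, Rassf9 was the 1 at least 2-fold lower, where 6.78% of all genes were. In MIST1-null mice 1 of 5 was lower and 1 higher, Rassf2 (1.58), beside 4.8% and 4.9%. Those calls were lost with the pseudocount, raised values and the 75th percentile filter. Of the other 8 genes of the family, 7 had at least 1 array under the reference level, and Rassf3 lay between 56.3 and 83.6. Rassf6 was, beside Rassf10, the single family gene at least 2-fold higher in MIST1-null neck cells, at 71.6 against 33.6, a difference of 1.09 from a wild-type value under the level. In that comparison 1.89% of all genes were at least 2-fold higher. The Rassf6 call was lost with the pseudocount, raised values and the 75th percentile filter. Of 17 genes of the Hippo growth control pathway, to which some RASSF proteins bind, 15 reached the level in wild-type mice. Between cell types 0 were at least 2-fold apart, where 6.27% of all genes were higher and 6.78% lower. In MIST1-null mice 0 of 14 were, beside 4.9% and 4.8%. At those shares few genes of so short a list would be called. The kinase regulator gene Mob1a was at -0.87 and -0.54 and the kinase gene Stk4 at -0.55 and -0.84. Between genotypes, Wwtr1, the gene of the coactivator TAZ, was at least 2-fold lower in MIST1-null mice in neck (-1.14) and zymogenic cells (-1.01), where 2.4% and 5.23% of all genes were. Its MIST1-null neck value of 27.8 is under the level. The neck call was lost with the pseudocount, raised values and the 75th percentile filter, and the zymogenic call with the pseudocount and median centring.

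**Figure D4:**
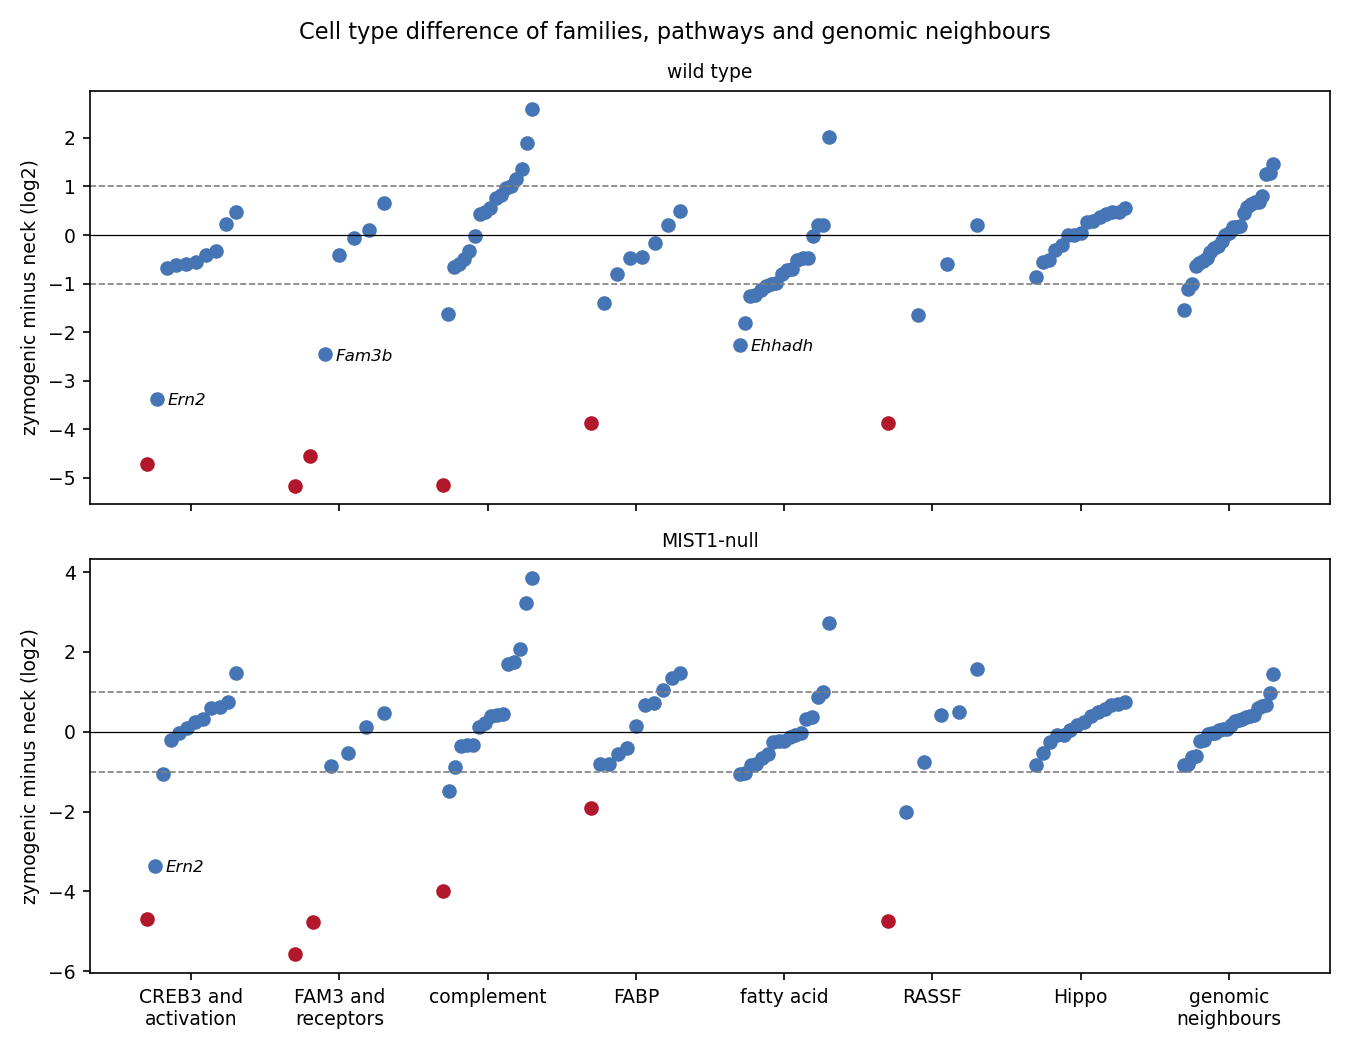
Zymogenic minus neck difference (log2) of genes reaching the reference level, by list, in wild-type mice (top) and MIST1-null mice (bottom), each point a gene, with the 6 genes in red, the others in blue and dashed lines at 2-fold. Ern2 is the lowest blue point in both genotypes, at -3.38 and -3.36, and the Hippo genes all lie within 2-fold.

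Genes lying beside the 6 on their chromosomes were read as well. Of the 36 measured protein-coding genes within 3 places on either side, 25 reached the reference level in wild-type mice. Of those 3 were at least 2-fold lower and 3 higher in zymogenic cells, beside 6.78% and 6.27% of all genes, with a median of 0.04. The 6 became 1 with the pseudocount and 3 with raised values or the 75th percentile filter. The lower ones were Btbd10 near Rassf10 (-1.55), Casp6 near Cfi (-1.11) and Slc39a1 near Creb3l4 (-1.01), for which another probe set gave 1.00. The higher ones were Aass (1.47) and Cped1 (1.26) near Fam3c and Rrh near Cfi (1.27). In MIST1-null mice 0 of 24 were at least 2-fold lower, beside 4.8% of all genes. There 1 was higher, Cped1 (1.46), beside 4.9%. That 1 became 0 with the pseudocount, raised values or the 75th percentile filter, and 3 with no filter. Tead1, a Hippo transcription factor gene directly beside Rassf10, differed by 0.04 and 0.05 between cell types.

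The genes most like each of the 6 were sought among 6563 genes by the distance between profiles of log2(intensity + 32) over the 4 arrays, each centred on its mean. A distance of 0 means the same profile. Oit1 was nearest to Agr2, at a distance of 0.05, and then to the mitotic kinase gene Plk1 (0.35). Agr2 read 2979 and 3472 in neck and 273 and 223 in zymogenic cells. Fam3c and Cfi were nearest to each other, at 0.37. Creb3l4 was nearest to Galntl6 (0.29), a gene of the enzyme family that starts mucin-type sugar chains, and then to the metallothionein gene Mt2 and the glutathione transferase gene Mgst2. Rassf10 was nearest to Gcnt3 (0.37), which branches mucin sugar chains and read 207 and 329 in neck and 26.0 and 20 in zymogenic cells. Fabp1 stood apart, with Sult1b1 (0.26), Ppp2r2b (0.29) and Lrrc31 (0.31) nearest and distances of 1.43 to 2.39 to the other 5 genes. With plain log2 values in place of the pseudocount, 1 of the 3 nearest genes was again found for each gene but Fabp1, with 0 of 3. Those were Galntl6 for Creb3l4 and Rassf10, Plk1 for Oit1, and Fam3c and Cfi for each other, while Agr2 was no longer among the 3 nearest to Oit1.

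**Figure D5:**
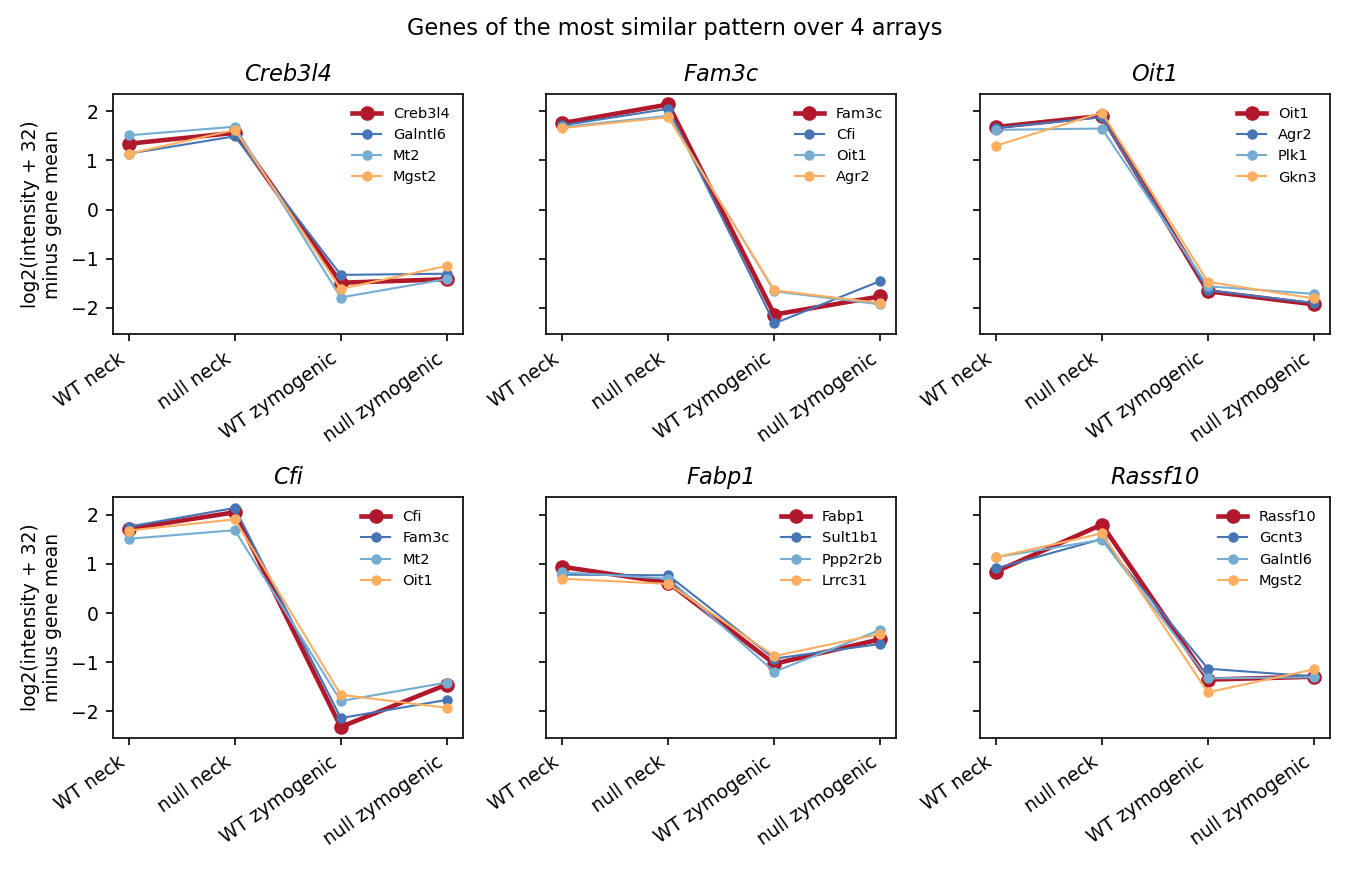
Log2(intensity + 32) minus the mean of each gene over the 4 arrays, for each of the 6 genes (thick red line) and its 3 nearest genes, with lines joining arrays only as a guide. Oit1 and Agr2 nearly coincide, and the Fabp1 profiles span the narrowest range.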

How the data were processed

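RNA of 4 groups was measured on 1 Affymetrix Mouse Gene 1.0 ST array each. Per the labels and design text, the authors used dChip for the deposited intensity values, which are linear judging by their range. No source used here states their background correction, probe summary or scaling. Array medians lay between 37.9 and 40.9, and precision is limited by the number of arrays. Gene names came from the platform annotation: of 35512 probe sets 21789 had 1 gene, 1621 several and 12102 none listed, and only the first kind was used. Entrez identifiers of 21698 were found in RefSeq (GRCm38.p6). Of several probe sets of a gene the one with the highest mean was kept. Intensities under 1 were set to 1 and log2 was taken. In each comparison a gene counted where the higher value reached 43.7, and called meant 2-fold or more. Of 130 list entries 118 were matched. Named genes were the 6, list members, the 3 nearest patterns and neighbours at least 2-fold apart. Alternatives were a pseudocount of 32, raising low values to the level, quantile normalization, median centring, the mean of probe sets, no filter and a 75th percentile filter. The 6 genes and the lists were chosen with earlier results of these data known, and the promoter motifs after the values were seen. The code for counts and distances was checked on simulated data with planted changes and the same small noise at every intensity. That check does not show how reliable low values are. The software was Python 3.11.15, numpy 2.4.6 and pandas 2.3.3.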

Additional observations from a re-analysis of the deposited data

How the results depend on the processing

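No paired analysis was possible because each group was 1 array. In both cell type comparisons 6 of 6 genes stayed at least 2-fold lower in zymogenic cells under the 7 alternatives. The smallest sizes were those of Fabp1 with low values raised to the reference level, at -1.55 and -1.13 in wild-type and MIST1-null mice. In neck cells the count of 1 gene at least 2-fold apart between genotypes, Rassf10, was 0 with the pseudocount, at 0.95. In zymogenic cells the count of 1, Cfi, was 0 with the pseudocount, with raised values and with the 75th percentile filter, and 2 with no filter.

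Counts over all genes, higher and lower in zymogenic cells of wild-type mice, went from 739 and 799 to 262 and 314 with the pseudocount and to 365 and 516 with raised values. The higher count was 1166 with no filter and 398 with the 75th percentile filter. In MIST1-null mice 555 and 543 became 214 and 222 with the pseudocount, 287 and 330 with raised values, and 313 and 348 with the 75th percentile filter. Between genotypes in neck cells 207 higher and 263 lower became 28 and 53, 92 and 100, and 104 and 120 in the same order, and 333 and 556 with no filter. In zymogenic cells 609 and 619 became 166 and 179, 340 and 309, and 369 and 347, and the lower count was 1167 with no filter. List genes and neighbours at least 2-fold apart, without the 6, were 24, 18, 8 and 12 in the 4 comparisons. They were 12, 6, 2 and 7 with the pseudocount, and 15, 8 and 2 in the first 3 with raised values and 15, 9 and 3 with the 75th percentile filter. For the lists taken singly, whose counts are small, 56 values moved by more than 1.5 times and 168 did not. Of the differences of the 6 genes, 26 values moved by that much and 142 did not. No difference of at least 2-fold among the 6 genes changed direction. Signal over background is unknown here, which limits the size of each difference from a low value.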

Other observations

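Several complement genes ran opposite to Cfi. Vtn, vitronectin, which blocks the membrane attack complex, read 70.1 in wild-type and 19.8 in MIST1-null neck cells and 263 and 284 in zymogenic cells. Serping1, the C1 inhibitor, read 35.7 and 23.8 in neck and 79.1 and 221 in zymogenic cells. C8b, a subunit of that complex, read 15.1 and 19.6 in neck and 90.9 and 82.7 in zymogenic cells. Their differences were 1.90, 1.15 and 2.59 in wild-type mice and 3.85, 3.22 and 2.08 in MIST1-null mice. All these neck values but that of Vtn in wild-type mice are under the reference level, which limits the sizes. Stromal and immune markers, summed, were higher in the same zymogenic arrays, and their part was not tested.

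Among relatives of Fabp1, the fat and capillary form Fabp4 read 690 in wild-type neck, 253 in MIST1-null neck, 506 in wild-type zymogenic and 418 in MIST1-null zymogenic cells. The retinol-binding relative Rbp7 read 261, 126, 148 and 259 in the same order. Both were thus at least 2-fold lower in MIST1-null than in wild-type neck cells, at -1.45 and -1.05, where 2.4% of all genes were. The Rbp7 call was lost with the pseudocount and with median centring. Summed stromal markers were 471 in wild-type and 325 in MIST1-null neck cells and immune markers 308 and 123, and their part was not tested.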
